A study of Ditylenchus destructor and Heterodera glycines and Meloidogyne incognita with 162 samples.

Results

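Embryos of the plant-parasitic nematode Ditylenchus destructor were compared between the 64-78 cell stage and the Comma stage, each embryo sequenced on its own. The members were chosen by stage label alone: 5 libraries of each stage, 10 of the 54 libraries of this species and of 162 in the whole series. All 15798 gene IDs of the count table entered the comparison. Each library was made by Smart-seq2, a full-length method for very small amounts of RNA, from 1 whole embryo of strain Dd1115 kept on sweet potato tubers. No treatment or mutation separated the groups. Both were untreated embryos staged by their appearance under the microscope, and the sequenced embryos were selected from a larger number. The labels do not say whether embryos came from separate cultures, so p-values here measure the spread between embryos.

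Between these stages a nematode embryo passes from a ball of dividing cells, in which gastrulation is under way, to a body that begins to bend and elongate. In Caenorhabditis elegans, the species from which most of this is known, most cell divisions are over by the comma stage and tissues such as epidermis, muscle and gut then differentiate. The comparison therefore asks how the transcriptome of a whole embryo differs across the onset of morphogenesis. The gene IDs could not be tied to gene names, so genes are described by ID, position, level and the stage at which they were most abundant, and no function is given for any of them.

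The count totals of the 64-78 cell libraries ranged from 1291164 to 6103772 and those of the Comma libraries from 2536102 to 7768327. No 2 libraries of a stage held the same sample of counts, since the least different pair still had a chi-square of 30.01 per degree of freedom. Levels are given below as CPM, for which each gene's count was divided by the library total and multiplied by 1000000. CPM is not divided by gene length, so genes are compared between embryos and not with each other. In the study's own table the alignment of reads was lowest, among the Comma libraries, for replicates 3, 4 and 5. Within bulk RNA of a whole embryo, fewer cells that express a gene and less RNA per cell cannot be told apart.

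Comma embryos differed from each other more than 64-78 cell embryos did. The mean Pearson correlation of log2(CPM + 1) between embryos of the 64-78 cell stage was 0.787 ± 0.0279 (SD, 10 pairs), over the 14613 genes that averaged 1 CPM or more at either stage. Between Comma embryos it was 0.591 ± 0.111 (SD, 10 pairs). The difference of -0.196 had p = 0.00794 in an exact two-sided permutation test over the 10 embryos, the smallest p that 5 against 5 allows. All 10 pairs of 64-78 cell embryos correlated at 0.737 to 0.825, and the pairs of Comma embryos at 0.430 to 0.738. The pairs made of 1 embryo of each stage averaged 0.672 (25 pairs), above the mean within Comma.

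The embryos did not contribute evenly to this spread. Comma replicate 5 had a mean correlation of 0.472 with the other Comma embryos, against 0.584, 0.636, 0.652 and 0.612 for replicates 1 to 4. The 64-78 cell embryos had 0.788, 0.770, 0.809, 0.783 and 0.785. Comma replicates 1 to 4 each correlated better with the 64-78 cell embryos, at 0.743, 0.725, 0.750 and 0.675, than with their own stage. Without Comma replicates 1 and 5, a choice made after seeing the data, the difference between the stages was -0.0802 (exact permutation p = 0.143, 5 against 3 embryos). The per-gene SD of log2(CPM + 1) showed the same ordering, with a median of 1.14 at the 64-78 cell stage and 1.45 at Comma. It was larger at Comma for 7300 of the 10772 genes tested, or 67.8%. Without Comma replicate 5 the Comma median was 1.23, and without replicates 1 and 5 it was 0.97, below that of the 64-78 cell stage.

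**Figure D1:**
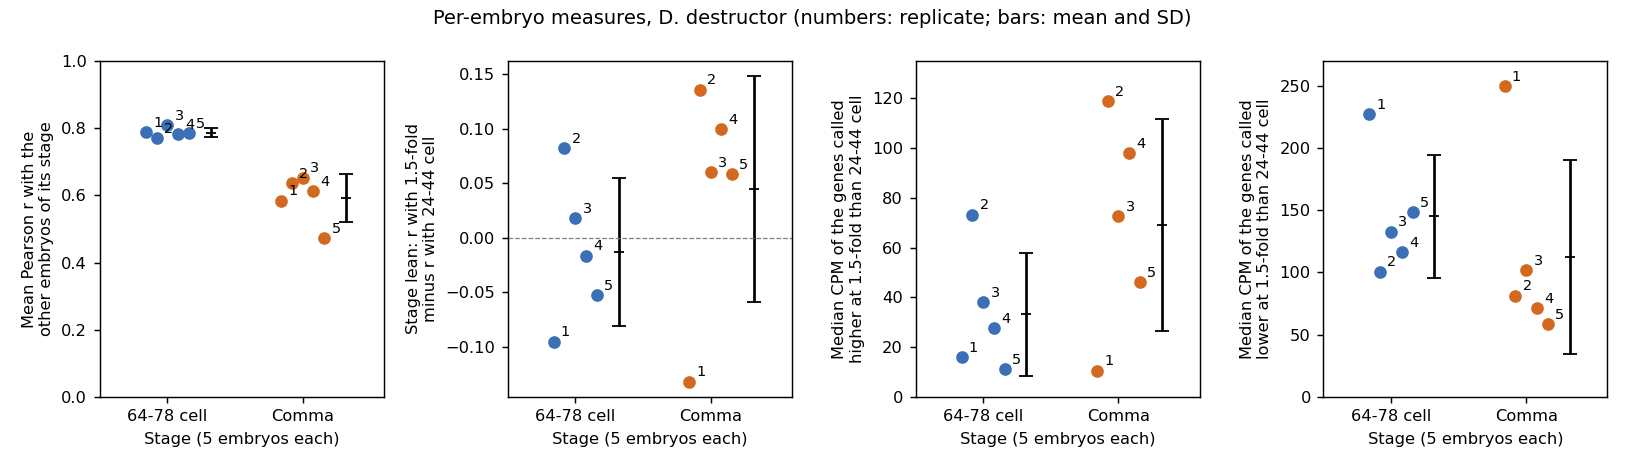
Values of the 10 embryos, with the replicate number beside each point and the mean and SD of each stage beside the points: mean Pearson r with the same stage, the stage lean (r with 1.5-fold minus r with 24-44 cell embryos), and the median CPM of genes called higher or lower at 1.5-fold than at 24-44 cell. Comma replicate 5 has the lowest r (0.472), and Comma replicate 1 is the lowest of all 10 in stage lean (-0.132) and in the genes called higher (10.5 CPM) and the highest in those called lower (250 CPM).

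The stage labels were checked against the neighbouring stages, which share no library with either group. For each embryo the mean correlation with 24-44 cell embryos was subtracted from that with 1.5-fold embryos, over 14873 genes, so that a higher value leans towards the later stage. The 64-78 cell embryos had values of -0.0954, 0.0823, 0.0178, -0.0166 and -0.0530. The Comma embryos had -0.132, 0.136, 0.0603, 0.0997 and 0.0584. Replicates 2 to 5 of Comma all leaned to the later stage, whereas Comma replicate 1 leaned further to the earlier stage than any 64-78 cell embryo.

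The means of the stage lean, -0.0130 ± 0.0679 (SD, n = 5) and 0.0444 ± 0.104 (SD, n = 5), differed by 0.0574, which was within the spread between embryos (exact permutation p = 0.317, two-sided). Without Comma replicate 1 the difference was 0.102 (exact permutation p = 0.0476). By mean correlation over the 15343 genes that averaged 1 CPM or more at any of the 11 stages, Comma replicate 1 was most like the 24-44 cell embryos and Comma replicates 2, 3 and 4 most like the 1.5-fold embryos. Comma replicate 5 correlated at 0.522 with its own stage and at 0.520 with 1.5-fold embryos over these genes, so the stages were hardly separated for it. Among the 64-78 cell embryos, replicates 3, 4 and 5 were most like their own stage, replicate 1 was most like 24-44 cell and replicate 2 most like 1.5-fold embryos.

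**Figure D2:**
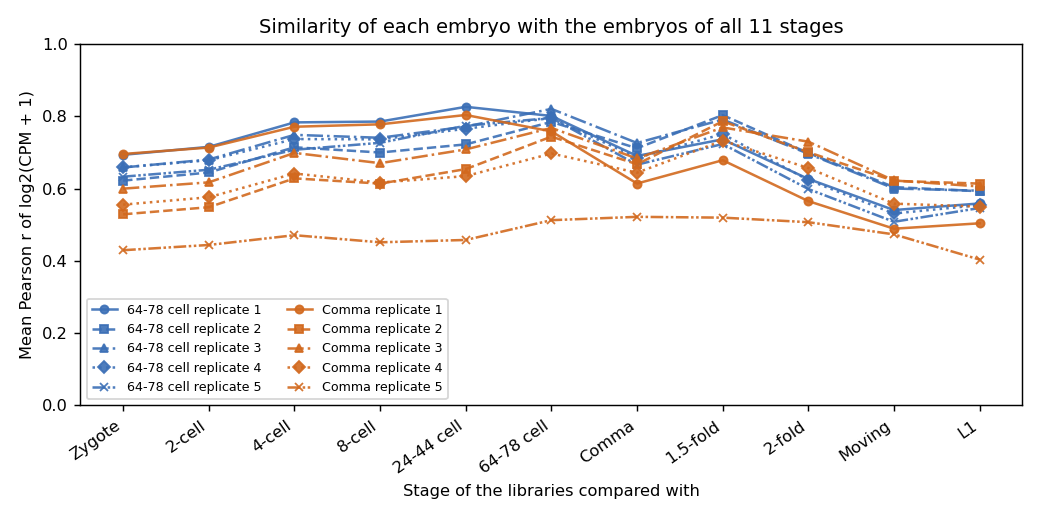
Mean Pearson r of log2(CPM + 1) (vertical axis) of each of the 10 embryos with the embryos of each of the 11 stages (horizontal axis), with itself left out; blue lines are 64-78 cell and orange lines Comma embryos. Comma replicate 5 lies below all other lines and peaks at 0.522, and Comma replicate 1 follows the 64-78 cell lines with its highest value at the 24-44 cell stage.

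Counts in Comma replicate 5 were also unevenly spread over the 4 chromosomes. It had 27.3% of its counts on chromosome 1, 13.2% on chromosome 2, 10.5% on chromosome 3 and 49.0% on chromosome 4. In the other 53 libraries of the species, across all 11 stages, these shares ranged from 14.2 to 23.5%, from 16.1 to 28.7%, from 17.1 to 27.5% and from 28.0 to 41.7%. Comma replicate 5 was thus outside the range of every other library on all 4 chromosomes. On chromosome 1, the share includes 7.64% of the library's counts from 7 genes described below. Without that part it would lie within the range of the other 53 libraries.

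The imbalance in Comma replicate 5 ran along most of the length of the chromosomes. For genes that averaged 10 CPM or more over the 10 embryos, its log2(CPM + 1) was compared with the median of the other 9 embryos. The median difference was 0.44 on chromosome 1, -0.39 on chromosome 2, -0.68 on chromosome 3 and 0.99 on chromosome 4. On chromosome 4, 70.9% of 3538 genes lay above the other embryos, against 37.9% of 1949 genes on chromosome 3. Cut into blocks of 5000000 bases, all 8 blocks of chromosome 4 had a median above 0 (0.69 to 1.94), and all 5 blocks of chromosome 3 had one below 0 (-0.87 to -0.39). All 4 blocks of chromosome 1 were above 0 (0.36 to 0.66). They were so in Comma replicate 3 too (0.46 to 0.58), where the median on chromosome 1 was 0.48. Chromosome 2 was mixed, with 1 of 6 blocks above 0 (-0.71 to 0.12).

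A smaller imbalance was present in 64-78 cell replicate 4. Chromosome 2 held 16.1% of its counts, against 22.9 to 24.7% in the other 4 embryos of the stage, and its genes had a median difference of -0.50 from the other 9 embryos. All 6 blocks of chromosome 2 were below 0 in that embryo, at -0.94 to -0.12, whereas its other chromosomes had medians of 0.03 to 0.15. In the remaining 8 embryos the medians of the 4 chromosomes spanned 0.23 to 0.52 from lowest to highest, compared with 1.67 in Comma replicate 5 and 0.65 in 64-78 cell replicate 4.

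Comma replicate 5 carried over to the comparison of stages by chromosome. With all 10 embryos, the median difference of mean log2(CPM + 1) between Comma and 64-78 cell embryos was 0.24 on chromosome 1, 0.07 on chromosome 2, -0.08 on chromosome 3 and 0.26 on chromosome 4. Without Comma replicate 5 the medians were 0.15, 0.16, 0.12 and 0.05. The order of the chromosomes and the sign on chromosome 3 therefore rested on that embryo.

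**Figure D3:**
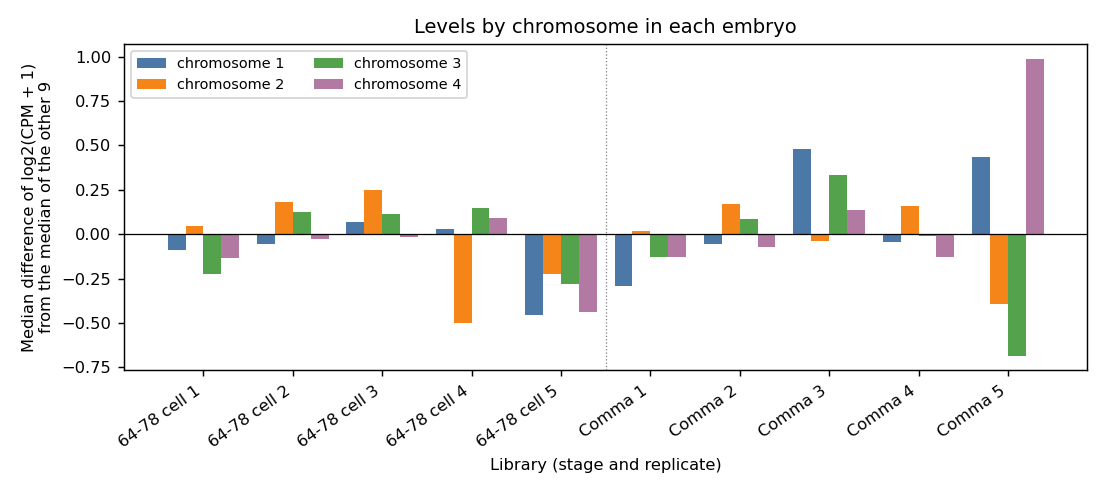
Median difference of log2(CPM + 1) from the median of the other 9 embryos (vertical axis), for genes of each chromosome (colours) in each embryo (horizontal axis, 64-78 cell left and Comma right of the dotted line). Comma replicate 5 runs from -0.68 on chromosome 3 to 0.99 on chromosome 4, and chromosome 2 is at -0.50 in 64-78 cell replicate 4.

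Single embryos also stood out gene by gene. In Comma replicate 5, 193 genes were at least 10-fold above all other 9 embryos and at 10 CPM or more, and 218 genes that had at least 10 CPM in the other 9 were at least 10-fold below them. Of the 193 genes above, 112 lay on chromosome 4, and of the 218 below, 178 lay on chromosomes 2 and 3 (83 and 95). In Comma replicates 1 to 4 the genes above numbered 10, 31, 46 and 25, and those below 79, 11, 2 and 74. In the 64-78 cell embryos the genes above numbered 0 to 7 and those below 10, 6, 1, 35 and 102.

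With this spread, no gene passed the test between the stages. edgeR's quasi-likelihood test with Benjamini-Hochberg adjustment covered the 10772 genes with enough counts, and 0 of them (0%) had an adjusted p under 0.05, the lowest adjusted p being 0.588. Without adjustment 756 genes (7.02%) had p under 0.05, of which 515 (4.78%) were higher and 241 (2.24%) lower at Comma. DESeq2 called 154 of 13069 genes (1.18%), 141 higher (1.08%) and 13 lower (0.0995%), and limma with weights for library quality called 0. Leaving out Comma replicate 1 lowered the smallest edgeR adjusted p to 0.151 with no call, and leaving out Comma replicates 1 and 5 together gave 9 genes called higher and 0 lower. Counts were also simulated with the fitted spread of each gene, taken as equal in both stages and independent between genes. In these, edgeR recovered 0% of genes changed 2-fold, 17.5% of those changed 8-fold and 70% of those changed 64-fold. Of its 62 calls, 5 were false. DESeq2 recovered 2.5%, 45% and 90% of the same genes, and 50 of its 145 calls were false. Changes of 2-fold were thus hardly detectable in the simulated counts. The unequal spread of the stages and the shifts of whole chromosomes were not simulated, so the rates may not hold for the real libraries.

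The log2 fold changes leaned to Comma. The median over all genes tested was 0.25, and 6389 genes (59.3%) had a positive value. With DESeq2's size factors used in edgeR the median was 0.42, and 78.7% instead of 68.1% of the genes with unadjusted p under 0.05 were higher at Comma. Without Comma replicates 3, 4 and 5 the median over the genes tested in that fit was 0.07, and 188 genes were higher against 253 lower at an unadjusted p under 0.05. With limma and weights for library quality the median was 0.05, with 613 higher and 547 lower. The size of the lean thus differed with the scaling, the weights and the embryos used, and values of gene groups are given beside the median of all genes.

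The 2 groups of embryos did not overlap for 189 of the genes tested (1.75%), 105 of them higher (0.975%) and 84 lower (0.78%) at Comma. For a single gene with no difference, 5 against 5 embryos fail to overlap with a probability of 0.00794. The genes higher at Comma were of low level at the 64-78 cell stage, with a median of their mean levels of 6.49 CPM, and 41.9 CPM at Comma. Their median level at the other 9 stages was 6.85 to 34.3 CPM. The genes lower at Comma were abundant, with medians of 295 and 113 CPM. In both sets the gap between the 2 stages follows in part from how the genes were picked. At the other 9 stages the median level of the 84 was 71.5 to 175 CPM, the highest of these being 175 CPM at 24-44 cell and 156 CPM at 1.5-fold.

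Of the few IDs that can be shown, the 2 with the smallest unadjusted p in each direction were chosen after their values were seen, since none passed the test. Dd_11948, at 9999593 to 10006405 on the minus strand of chromosome 4, had 473, 251, 502, 301 and 441 CPM in the 64-78 cell embryos. In the Comma embryos it had 122, 63.3, 77.0, 76.2 and 56.4 CPM. Every 64-78 cell embryo was above every Comma embryo, and the log2 fold change was -2.41 (SE 0.45, unadjusted p = 9.7e-05, edgeR adjusted p = 0.588, DESeq2 adjusted p = 1.12e-05).

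Dd_08023, at 7276166 to 7281571 on the minus strand of chromosome 3, had 397, 383, 519, 696 and 370 CPM at the 64-78 cell stage. At Comma it had 130, 223, 70.7, 69.6 and 76.1 CPM, again with no overlap. The log2 fold change was -2.11 (SE 0.49, edgeR adjusted p = 0.588, DESeq2 adjusted p = 0.00776). It overlaps 1 gene on the opposite strand, and the library type does not mark strand, so reads of the 2 genes cannot be told apart. Both Dd_11948 and Dd_08023 had their highest stage mean of all 11 stages at the 64-78 cell stage, at 394 ± 111 and 473 ± 138 CPM (SD, n = 5). The next highest means were 162 and 252 CPM, both at the 24-44 cell stage.

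The IDs with the smallest p among those higher at Comma were neighbours on chromosome 1. Dd_00677, at 4333115 to 4335591 on the plus strand, had 6.06, 7.67, 17.0, 41.3 and 92.4 CPM at the 64-78 cell stage and 47.7, 380, 969, 5759 and 7994 CPM at Comma. Dd_00676, at 4331653 to 4332183 on the plus strand, had 6.42, 5.90, 6.20, 9.83 and 39.0 CPM and then 7.63, 170, 603, 1027 and 7727 CPM. For both, Comma replicate 1 lay within the range of the 64-78 cell embryos and the other 4 Comma embryos above it. The log2 fold changes were 6.28 (SE 1.35) and 6.82 (SE 1.46), with an edgeR adjusted p of 0.588 and DESeq2 adjusted p of 3.76e-06 and 3.40e-06. For Dd_00676 the value was 4.92 without Comma replicate 5 and 7.85 without 64-78 cell replicate 5. For Dd_00677 it ran from 5.64 to 7.26 with 1 library left out, the ends being without the same 2 libraries. Without Comma replicates 3, 4 and 5 the log2 fold changes of Dd_00677 and Dd_00676 were 2.60 and 2.61.

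These neighbours belong to a stretch of chromosome 1 that held a large share of the counts in some Comma embryos. Between 4000001 and 5000000, a window of 149 genes, the share of counts averaged 0.571% at the 64-78 cell stage (0.468 to 0.716%) and 3.53% at Comma (0.486 to 8.37%). Among the windows of 1000000 bases this was the largest difference, and the next largest with a higher share at Comma was 0.322 percentage points. In the other direction the window from 16000001 to 17000000 on chromosome 3 averaged 2.22% at the 64-78 cell stage and 1.48% at Comma, and that from 5000001 to 6000000 on chromosome 4 averaged 2.95% (2.80 to 3.08%) and 2.23% (2.13 to 2.37%). In both of these the groups did not overlap, the chromosome 3 window having 2.17 to 2.28% against 0.672 to 1.97%. The groups also did not overlap for 9000001 to 10000000 on chromosome 4 (2.32 to 2.84% against 1.77 to 2.15%) and 17000001 to 18000000 on chromosome 1 (0.166 to 0.185% against 0.202 to 0.358%). No other window of the 124 lacked overlap. Within the window from 4000001 to 5000000 on chromosome 1, 7 genes had a mean of at least 1000 CPM at Comma and at least 10 times their 64-78 cell mean. This description was set after seeing the data. Among the genes elsewhere, 5 did so, 1 of them just before the window at 3992995 on chromosome 1, and 0 genes did so in the opposite direction.

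The 7 genes lay between 4073463 and 4923464, among 129 genes in all. Their log2 fold changes ran from 5.68 to 6.87, a size that follows from how the 7 were picked. The other 85 genes tested in the window had a median of 0.65, beside 0.25 for all genes tested. Together the 7 genes took 0.0145, 0.0100, 0.0130, 0.0261 and 0.106% of the counts in the 64-78 cell embryos. In the Comma embryos they took 0.0404, 0.178, 1.02, 5.67 and 7.64%. The share was thus above 1% in Comma replicates 3, 4 and 5, which are also the libraries of lowest alignment, and within the 64-78 cell range in Comma replicate 1. The part of alignment in this result was not tested. In Comma replicate 2, which is not among those libraries, the share was 0.178%, above all 64-78 cell embryos. None of the 7 genes separated the groups without overlap. Of the 7, 3 genes, including Dd_00676, have the same span of 531 bases and may share reads.

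At other stages the share of these 7 genes had medians of 0.000807% in zygotes, 0.00133% at 8-cell, 0.0520% at 1.5-fold, 0.163% at 2-fold, 0.0184% in moving embryos and 0.0393% in L1 larvae. The highest library outside the stages compared was 4-cell replicate 1, with 1.29%. Replicate 2 of the 4-cell stage had 0.270%, while its replicates 3, 4 and 5 had 0.00208 to 0.0145%. Moving replicate 3 had 0.610%, against 0.0122 to 0.0613% in the other 4 moving embryos. Some embryos thus stood far above others of their stage at 4-cell and Moving as well as at Comma.

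**Figure D4:**
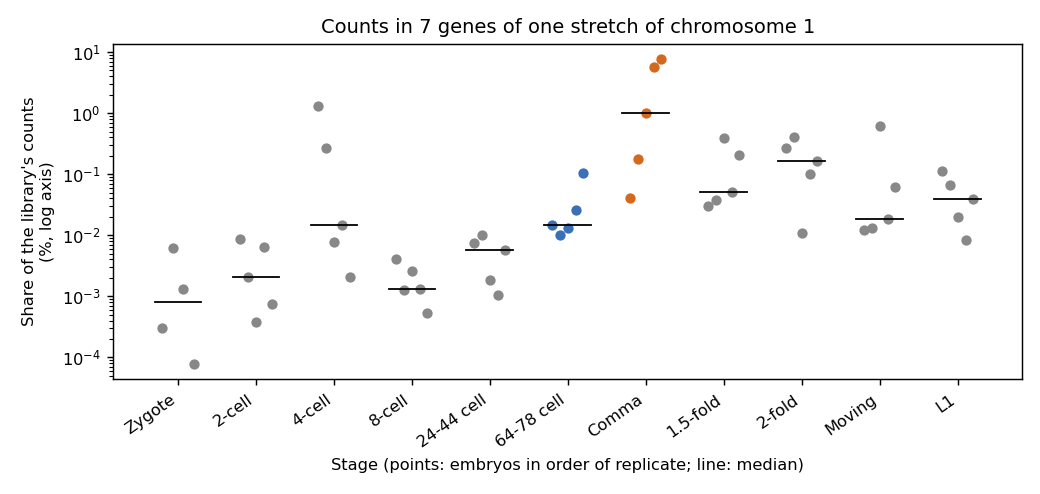
Share of each library's counts in the 7 genes of the chromosome 1 stretch (vertical log axis, %) at each of the 11 stages (horizontal axis), with 1 point per embryo in order of replicate and a line at the stage median. The Comma embryos (orange) spread from 0.0404 to 7.64%, the 64-78 cell embryos (blue) from 0.0100 to 0.106%, and 4-cell replicate 1 reaches 1.29%.

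Genes were then grouped by stages outside the comparison. Between 24-44 cell and 1.5-fold embryos, which flank the 2 stages and share no library with them, edgeR called 1538 of 10497 genes (14.7%), 884 higher (8.42%) and 654 lower (6.23%) at 1.5-fold. The genes called higher over that wider interval had a median log2 fold change between 64-78 cell and Comma of 0.87, beside 0.25 for all genes. A positive value was found for 610 of the 836 tested (73.0%), beside 59.3% of all genes. Unadjusted p was under 0.05 with a higher Comma level for 132 of them, or 15.8%, beside 4.78% of all genes, and with a lower Comma level for 7. Without Comma replicates 3, 4 and 5 these counts were 47 and 11, with a median of 0.40. All genes tested with 10 libraries then had a median of 0.03, with 146 higher and 232 lower.

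Embryo by embryo, the median level of the 884 genes was 15.9, 73.2, 38.0, 27.7 and 11.1 CPM at the 64-78 cell stage and 10.5, 118.8, 72.6, 98.1 and 46.1 CPM at Comma. Comma replicate 1 had the lowest value of all 10 embryos, and 64-78 cell replicate 2 lay within the Comma range. The groups thus overlapped.

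The 654 genes called lower at 1.5-fold had a median log2 fold change of -0.37, and 183 of the 643 tested (28.5%, beside 59.3% of all genes) had a positive value. Unadjusted p was under 0.05 for 27 lower at Comma (4.20%, beside 2.24% of all genes) and 4 higher. Their median levels were 227, 101, 133, 116 and 149 CPM at the 64-78 cell stage and 250, 81.2, 102, 71.01 and 58.4 CPM at Comma. Comma replicate 1 had the highest value of the 10 embryos. Without it 157 of these genes were lower and 2 higher at an unadjusted p under 0.05, with a median of -0.93. Of all 10764 genes in that fit, 451 were then lower and 735 higher, with a median of 0.22. Without Comma replicates 3, 4 and 5 the direction turned, with a median of 0.12, 3 lower and 9 higher. Only Comma replicates 1 and 2 are left in that fit, and replicate 1 had the highest level of these genes. All genes then had a median of 0.03, with 232 lower and 146 higher. As a list called in other stages, the 654 genes give a direction and not a test of the 2 stages compared here.

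By the stage at which a gene had its highest mean outside the comparison, the largest medians were those of genes that peaked at 2-fold and in moving embryos, beside 0.25 for all genes. Of all genes tested, 4.78% were higher and 2.24% lower at an unadjusted p under 0.05. The 992 tested genes that peaked at 2-fold had a median log2 fold change of 1.01, and 123 (12.4%) had an unadjusted p under 0.05 with a higher level at Comma against 6 with a lower level. The 2132 genes that peaked in moving embryos had a median of 0.99, with 155 (7.27%) and 6, and without Comma replicate 5 a median of 0.57, with 77 and 8. All 10772 genes then had a median of 0.16, with 355 higher and 226 lower, so the group's share of higher genes was near that of all genes. With all 10 libraries, the 1137 genes that peaked in L1 larvae had a median of 0.52, with 61 (5.37%) and 21 (1.85%), shares near those of all genes. Without Comma replicates 3, 4 and 5 the genes that peaked at 2-fold had a median of 0.19, with 16 higher and 20 lower. All genes then had a median of 0.03, with 146 higher and 232 lower.

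Genes that peaked just before the comparison lay on the other side. The 1207 genes with their peak at 24-44 cell had a median of -0.30, with 9 higher and 69 lower (5.72%), and the 519 with their peak at 8-cell had a median of -0.32, with 2 higher and 24 lower. Without Comma replicate 1 the lower genes numbered 169 and 72, where 451 of all 10764 genes were lower. Without Comma replicates 3, 4 and 5 they numbered 31 and 7, with medians of -0.01 and -0.12. In that fit 232 of all 10770 genes were lower, with a median of 0.03. Genes that peaked at zygote, 2-cell or 4-cell had medians of 0.09, 0.04 and 0.11, below the 0.25 of all genes. The 1696 genes that peaked at 1.5-fold had a median of 0.01, with 100 higher (5.90%) and 46 lower (2.71%), shares near the 4.78% and 2.24% of all genes.

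**Figure D5:**
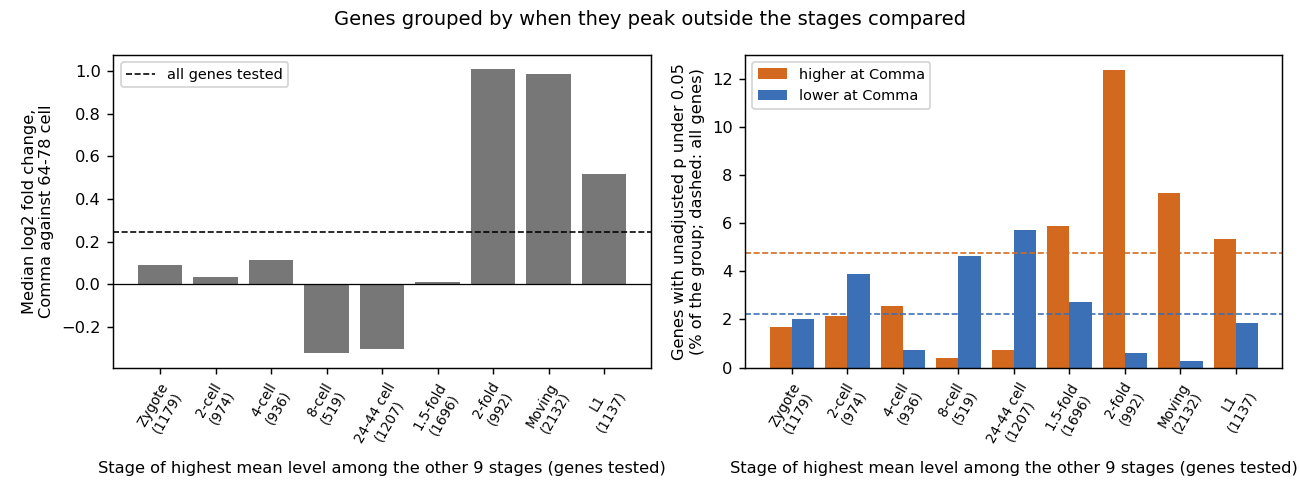
Genes grouped by the stage of their highest mean among the 9 stages outside the comparison (horizontal axes, with the number tested): median log2 fold change of Comma against 64-78 cell (left) and percent of the group with an unadjusted p under 0.05, higher or lower at Comma (right), with dashed lines for all genes tested. The 2-fold group stands highest, at a median of 1.01 and 12.4%, and the 8-cell and 24-44 cell groups have negative medians.

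In counts, genes of the 24-44 cell peak took 28.7, 15.7, 22.7, 22.8 and 26.9% of the 64-78 cell libraries and 28.2, 16.4, 15.2, 11.2 and 11.6% of the Comma libraries. Comma replicate 1 kept a share like that of the 64-78 cell embryos, and 64-78 cell replicate 2 one like that of the Comma embryos. Genes that peaked from 1.5-fold onwards took 31.1, 50.9, 41.5, 41.8 and 36.6%, and then 27.4, 57.6, 54.6, 54.1 and 51.2%. Genes of the moving peak alone took 18.6% of Comma replicate 5, against 4.74 to 10.9% of the other Comma embryos. The share of the 4-cell peak was 11.8 and 12.7% in Comma replicates 4 and 5, and 7.10 and 7.01% without the 7 genes of the chromosome 1 stretch, 5 of which had this peak. In Comma replicate 1 it was 10.8% with or without them.

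The number of genes detected differed by less than the spread between embryos. At 1 CPM or more, the 64-78 cell embryos had 10643, 12438, 11998, 9817 and 8882 genes and the Comma embryos 9971, 12311, 12468, 10864 and 12941. The means of 10756 ± 1481 and 11711 ± 1244 (SD, n = 5) differed by 955 (exact permutation p = 0.270, two-sided). At 10 CPM or more the difference was 1161 genes (exact permutation p = 0.0556). A mean of at least 1 CPM was reached by 12960 genes at the 64-78 cell stage and 14329 at Comma, of which 12676 were in both, 284 only in the first and 1653 only in the second. In every one of the 10 embryos 5708 genes reached 1 CPM.

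Few genes were seen in every embryo of 1 stage and in none of the other. With 0 counts in all 64-78 cell embryos and counts in all 5 Comma embryos there were 12 genes, of 3.09 to 19.6 CPM on average at Comma. Over the pooled counts of the Comma libraries they had 2.203 to 16.6 CPM. Set against the floor of 3 counts over the pooled 64-78 cell libraries, 0.202 CPM, these pooled levels were at least 10.9-fold to at least 82.4-fold higher, and 4 of the 12 passed the filter on low counts. No gene had the opposite pattern (0 genes). Library totals averaged 2974340 counts at the 64-78 cell stage and 4811170 at Comma, and counts of 0 are likelier at a lower total. The part of depth in this result was not tested. Of the 778 genes without a count at the 64-78 cell stage and with some at Comma, 325 had counts in a single Comma embryo.

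The share of counts in the 100 most counted genes was 19.3 ± 1.49% at the 64-78 cell stage and 19.7 ± 2.19% at Comma (SD, n = 5), a difference of 0.42 percentage points (exact permutation p = 0.746). Of the 100 genes with the highest mean CPM at each stage 62 were shared, and of the top 10, 5 were. The 1000 most counted genes held 4.84 percentage points less at Comma (exact permutation p = 0.0556), so the sign differs with the number of genes taken.

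By place in the genome, 238 of the 3840 genes tested on chromosome 4 (6.20%) had an unadjusted p under 0.05 with a higher level at Comma, beside 4.78% of all genes. The counts were 83 of 2031 (4.09%) on chromosome 1, 113 of 2639 (4.28%) on chromosome 2 and 80 of 2257 (3.54%) on chromosome 3. Without Comma replicate 5 the count was 116 on chromosome 4, where it fell most, and 67, 95 and 76 on chromosomes 1, 2 and 3. Over all 10772 genes it was then 355. The median log2 fold change of chromosome 4 was then 0.11, beside 0.16 for all genes, in place of 0.34 beside 0.25. Among 8146 pairs of neighbouring tested genes with all 10 libraries, both had an unadjusted p under 0.05 with a higher level at Comma in 41 pairs, both with a lower level in 7 and in opposite directions in 8. Of 1116 pairs on the same strand less than 500 bases apart, 5 were both higher and 4 both lower. Of 2908 same-strand pairs further apart, 11 and 1 were. On opposite strands, 17 and 0 of 2131 pairs pointing towards each other were, and 8 and 2 of 1991 pointing away.

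Against the neighbouring steps, edgeR called 208 of 10004 genes (2.08%) from 24-44 cell to 64-78 cell and 0 of 11691 from Comma to 1.5-fold (589 at an unadjusted p under 0.05, 5.04%). Both of these share 5 libraries with the comparison described here. Since no gene was called between 64-78 cell and Comma, 0 edgeR calls could be looked up in the wider interval. With DESeq2 in both, 63 of the 154 genes were also called the same way between 24-44 cell and 1.5-fold and 2 the opposite way, where DESeq2 called 3438 of 13214 genes (26%) over that interval, 2363 higher (17.9%) and 1075 lower (8.14%).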

How the data were processed

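The authors trimmed reads with fastp 0.20.1, aligned them with HISAT2 and counted reads per gene with HTSeq. The deposited table holds raw counts for 15798 D. destructor genes with chromosome, start, end and strand. Its genome build is not given in the sources used here. The tables of the other species were not used. Columns were matched to samples by title, and 0 columns were left unmapped. 0 of the 15798 IDs matched the RefSeq gene table available here, so no names or sequences are given.

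Counts were scaled by TMM, filtered with filterByExpr and tested with edgeR 4.0.16 (R 4.3.3) on the 10 libraries. The adjusted p threshold was 0.05. DESeq2 1.42.0 and limma 3.58.1 were alternatives. Log values used a pseudocount of 1 CPM. CPM replaced the TPM of the study because only genomic spans were known. Correlations, detection and stage lean were compared by exact permutation tests over 252 splits.

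The rule for named genes (called IDs that averaged 10 CPM or more at either stage, with no overlap between the groups) gave 0 IDs, so the 2 smallest p in each direction were shown. The members, gene groups and tests were chosen with earlier results of these data known. The fits were tested on simulated data with 40 genes per fold size. Totals of 1291164 to 7768327 counts per library cover counting error only, and reads carried no molecular identifiers.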

Additional observations from a re-analysis of the deposited data

Results flagged for a closer look

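Of 32 groups of 5 embryos examined, 9 had a highest or lowest embryo far from the other 4. The chance rate set for this rule, 5% of groups, cannot be held against these 9. The measures overlap, come from the same 10 embryos and were in part chosen after seeing the data. In 64-78 cell replicate 5 the 100 most counted genes held 21.9% of the counts, Dd_00676 was at 39.0 CPM and the 7 genes of the chromosome 1 stretch held 0.106%, each the highest of its stage. In Comma replicate 1 the stage lean was -0.132, and the median level of the genes called lower at 1.5-fold than at 24-44 cell was 250 CPM (249.6). In Comma replicate 5, Dd_00676 was at 7727 CPM, and chromosome 3 held 10.5% of the counts. In 64-78 cell replicate 4 chromosome 2 held 16.1% and chromosome 4 held 40.8%, the lowest and the highest of the stage. Outside the stages compared, the 7 genes of the chromosome 1 stretch held 1.29% of the counts of 4-cell replicate 1, against a floor of 6.3e-05% for 3 counts in that library. The causes were not tested.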

How the results depend on the processing

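The count of 0 genes called by edgeR in either direction stayed at 0 with DESeq2's size factors, no filter on low counts, thinning to the smallest total, all 54 libraries in 1 fit, a test against a 2-fold change, limma, each of the 10 libraries left out (lowest adjusted p 0.151 to 0.912) and Comma replicates 3, 4 and 5 left out. DESeq2 called 141 higher and 13 lower, and 63 of these 154 calls were repeated the same way between 24-44 cell and 1.5-fold. Over that interval DESeq2 called 26% of genes. With 0 edgeR calls there was none to repeat. Without Comma replicates 1 and 5, chosen after seeing the data, edgeR called 9 higher, and the difference in similarity was -0.0802 (exact permutation p = 0.143). The genes with unadjusted p under 0.05, 515 higher and 241 lower, ranged from 188 to 1463 and from 51 to 547 over the alternatives. With the replicate number as a block 0 genes were called, with 260 higher and 264 lower at an unadjusted p under 0.05 and a median log2 fold change of 0.08 over all genes. For replicates 1 to 5, the correlations of the deviations of same-numbered embryos were 0.247, 0.139, 0.0195, 0.000985 and -0.188. The highest correlations with another number were 0.0187, 0.187, 0.157, 0.0393 and 0.153. The same-numbered value was thus the higher for replicate 1 and the lower for replicates 2 to 5. Whether same-numbered embryos shared more than a number was not tested. With 1 library left out, the difference in similarity was -0.237 to -0.116, that in genes detected 487 to 1390, that in the share of the 100 most counted genes -0.363 to 1.15 percentage points (negative without Comma replicate 4), and that in stage lean 0.0346 to 0.102 (exact permutation p = 0.0476 without Comma replicate 1). The 1000 most counted genes gave -4.84 percentage points. The main values of the gene groups by stage kept their sign with DESeq2's size factors, for the 2 lists from 24-44 cell against 1.5-fold and for the groups that peaked at 8-cell, 24-44 cell, 2-fold and moving. The 4 IDs shown kept their direction in all alternatives, with Dd_00677 and Dd_00676 at 2.60 and 2.61 without Comma replicates 3, 4 and 5. The cause of these shifts was not tested. Thinning all libraries to the smallest total left 502 higher and 240 lower at an unadjusted p under 0.05, close to the values at full depth.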
